A study of Zea mays with 6 samples.

Results

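Broad DNase I hypersensitive sites (DHSs) that overlapped between both tissues and were of similar width in each were examined in maize. They were selected on the measured start and end of each DHS in 1 list for inner stem tissue of V2 seedlings (V2-IST) and 1 list for husk. DHSs of different lists formed a one-to-one pair when they shared at least 1 bp with each other and with no other DHS. A pair was kept when both DHSs measured at least 1000 bp, when the wider was less than 1.5 times as wide as the narrower, and when their starts and ends differed by more than 30 bp in sum. Of 11584 one-to-one pairs, 1190 met these conditions, and they stood for 1190 of the 21445 regions obtained by joining the DHSs of both lists.

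A DHS is a stretch of chromatin that the nuclease DNase I cuts more readily than its flanks, usually because nucleosomes there are displaced or loosely held. DHSs mark promoters, enhancers and other cis-regulatory sequences to which transcription factors bind. A DHS wider than the DNA wound around a few nucleosomes can span several such elements that lie side by side, and a DHS present in unrelated tissues is often found at a gene that is used widely.

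All libraries were from the inbred line B73, without any treatment of the plants, grown in a greenhouse under long days. V2-IST was the stem of young seedlings at the V2 stage, stripped of its outer leaves and of exposed blades. Husk was taken from the inner, soft leaf layer of ears at silk emergence. Each replicate pooled nuclei of several plants and mixed the cell types of its tissue. V2-IST had 2 biological replicates, husk had 2 (3 libraries, 1 of them a technical repeat), and naked B73 DNA cut with DNase I served as the control for peak calling. Tissue markers could not be checked, because the lists hold intervals and no genes.

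The authors integrated the replicates of a tissue into 1 list of chromosome, start and end. There were 18485 DHSs for V2-IST and 15261 for husk, and their coordinates are given on the AGPv4 assembly, counted from 1. Neither read depth nor a value per replicate is part of these lists, so no difference between the tissues could be set against the spread between replicates, and no test was run. Intervals beside shares are 95% Wilson intervals. They cover counting error alone and treat regions as independent, which neighbours are not.

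The broad shared DHSs made up a small part of each list but a larger part of the open sequence. They were 6.44% of the V2-IST DHSs and 7.80% of the husk DHSs. They covered 1.96 Mb in V2-IST (15.5% of the sequence in that list) and 1.89 Mb in husk (19.6%). Of the 6.97 Mb open in both lists, 1.75 Mb (25.1%) lay in the broad shared DHSs. The rule chose them by a minimum width, so these shares of sequence are given as a description.

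To see how often a broad DHS of one tissue was met by a similar one in the other, all DHSs of at least 1000 bp were followed. V2-IST had 3602 of these (19.5% of its list) and husk 2469 (16.2%). Of the broad husk DHSs, 48.2% were broad shared DHSs (46.2% to 50.2%), against 33.0% of the broad V2-IST DHSs (31.5% to 34.6%). The number of pairs is the same on both sides, so the shares differ because V2-IST had more broad DHSs. A further 158 pairs were broad with boundaries within 30 bp in sum, and 180 pairs were broad with a width ratio of 1.5 or more.

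The other broad DHSs met something else in the opposite list. A single partner under 1000 bp was found for 989 broad V2-IST DHSs (27.5%, 26.0% to 28.9%) and for 494 broad husk DHSs (20.01%, 18.5% to 21.6%). Several partners were found for 214 (5.94%) and 143 (5.79%), respectively, and a partner that also met a second DHS for 53 (1.47%) and 83 (3.36%). No partner was found for 818 broad V2-IST DHSs (22.7%, 21.4% to 24.1%) and for 221 broad husk DHSs (8.95%, 7.89% to 10.1%). Over DHSs of any width, 34.6% of the V2-IST list and 20.4% of the husk list had no partner. The longer V2-IST list thus had the larger share without a partner at any width, and nothing about broad DHSs is read from the difference between the tissues.

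**Figure D1:**
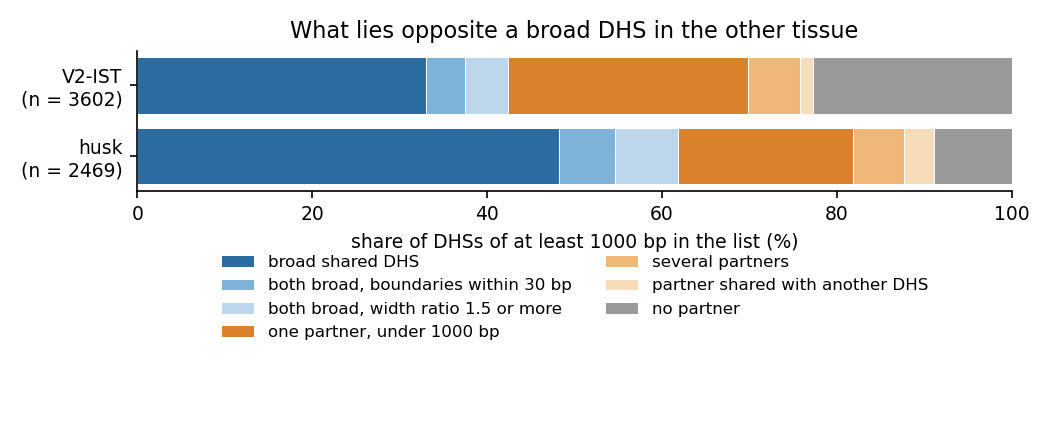
Share (%) of the DHSs of at least 1000 bp in each list by what lay opposite them in the other list, for 3602 V2-IST and 2469 husk DHSs. Dark blue marks the broad shared DHSs, 33.0% in V2-IST and 48.2% in husk, and grey marks DHSs with no partner, 22.7% and 8.95%.

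The widths of the broad shared DHSs were described without a test, since widths chose them. The V2-IST width ranged from 1001 to 5441 bp with a median of 1456.5 bp, and the middle part (from the first to the third quartile) lay between 1215 and 1856 bp. The husk width ranged from 1001 to 6511 bp with a median of 1409.5 bp, and the middle part lay between 1181 and 1812 bp. Most were thus only somewhat wider than the minimum. By the narrower DHS of the pair, 749 measured 1000 to under 1500 bp, 269 measured 1500 to under 2000 bp, 141 measured 2000 to under 3000 bp and 31 measured 3000 bp or more.

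By the mean width of both DHSs, the widest pair was near the start of chromosome 1, at 4717324 to 4722687 in V2-IST (5364 bp) and at 4716202 to 4722712 in husk (6511 bp). Here the ends on the right differed by 25 bp, while husk reached 1122 bp further to the left. The next widest, on chromosome 8, measured 5215 bp in V2-IST (167568061 to 167573275), and its husk DHS measured 4960 bp (167568288 to 167573247), with the husk DHS inside the V2-IST DHS. On chromosome 4, the widest single V2-IST DHS among the pairs, of 5441 bp (180294925 to 180300365), met one of 4399 bp in husk (180294969 to 180299367). That pair shared its left end to within 44 bp and differed by 998 bp on the right, the reverse of the first case. A second pair of chromosome 1 had widths of 4677 bp in V2-IST (291557733 to 291562409) and of 4795 bp in husk (291557831 to 291562625). The fifth, on chromosome 2, extended in V2-IST beyond the husk DHS at both ends, by 593 and 649 bp (9555673 to 9560751 in V2-IST, 5079 bp, and 9556266 to 9560102 in husk, 3837 bp).

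Those 5 differed in their surroundings as well. The pair on chromosome 2 had 6 other regions within 50 kb, of which 5 were V2-IST DHSs without a husk partner. Around the pair on chromosome 8, 7 of 8 other regions were open in both tissues, as were 6 of 7 around the pair on chromosome 4. The nearest other DHS was between 605 and 2922 bp away for all 5.

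**Figure D2:**
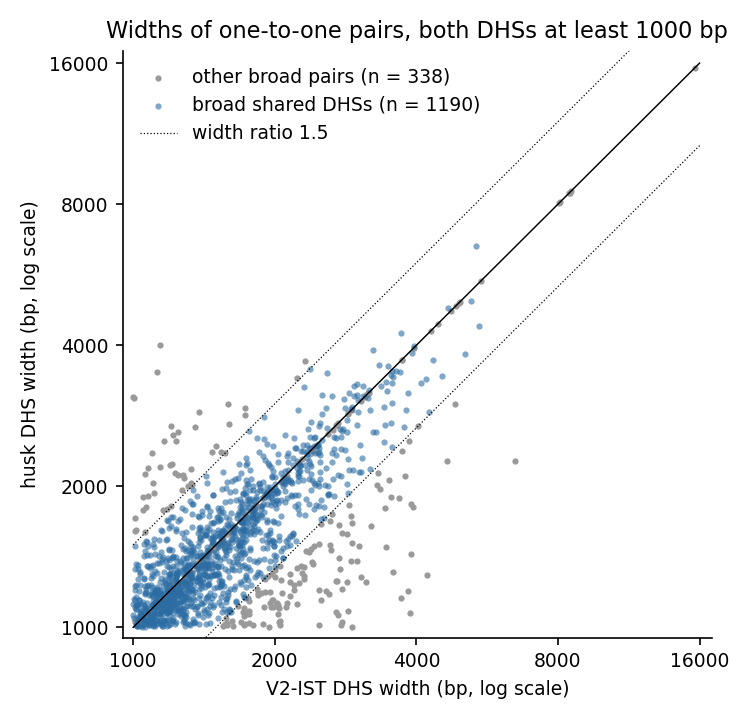
Width of the V2-IST DHS (x axis, bp, log scale) against the width of the husk DHS (y axis, bp, log scale) for one-to-one pairs with both DHSs of at least 1000 bp, each point 1 pair. Blue points are the 1190 broad shared DHSs, grey points the 338 other broad pairs, the solid line marks equal widths and the dotted lines a width ratio of 1.5.

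The DHSs of a pair overlapped over most of their length. The overlap covered a median of 89.1% of the wider DHS (80.2% to 94.3% from the first to the third quartile). In 552 pairs (46.4%) it was at least 90%. Among all one-to-one pairs the median was 79.3%, and 25.9% overlapped by at least 90%. For pairs of 500 to under 1000 bp that met the same ratio and boundary conditions, these values were 86.1% and 33.8%. The conditions act on these same starts and ends, so the overlap is given as a description. The median width ratio of the broad shared DHSs was 1.10. Added over both ends, the boundaries differed by 196 bp at the median, with quartiles of 97 and 383.5 bp.

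The differences in bp were larger in wider DHSs, but they were a smaller part of the width. From 1000 to under 1500 bp the median summed difference was 177 bp, or 13.9% of the mean width of the pair. At 1500 to under 2000 bp it was 217 bp (12.3%), at 2000 to under 3000 bp it was 258 bp (10.5%), and in the 31 pairs of 3000 bp or more it was 314 bp (8.24%). The median width ratio went from 1.10 in the first of these classes to 1.05 in the last. Narrower pairs that met the ratio and boundary conditions followed the same course. Their median summed difference was 71 bp (27.2%) under 300 bp and 155 bp (17.4%) at 700 to under 1000 bp, with ratios of 1.25 and 1.14. The course was thus not particular to broad shared DHSs, and the conditions act on these same values.

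In 724 of the 1190 pairs (60.8%, 58.0% to 63.6%) the DHS was wider in V2-IST, and in husk in 463 (38.9%, 36.2% to 41.7%), with 3 pairs of equal width. Among all 11584 one-to-one pairs the shares were 61.4% and 38.1%. The rule used these widths, so nothing about the broad pairs is read from this count. By chromosome, V2-IST was the wider in 48.8% (chromosome 6) to 66.9% (chromosome 5) of the broad pairs. The difference in width (V2-IST minus husk) had a median of 47 bp and ranged from -1184 to 1381 bp.

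The same was counted at each end. At the end with the lower coordinate V2-IST reached further in 682 pairs (57.3%) and husk in 506 (42.5%). At the end with the higher coordinate V2-IST reached further in 698 (58.7%) and husk in 487 (40.9%). Over all one-to-one pairs V2-IST reached further in 58.5% and 59.9%, respectively, so the lean was one of the lists as a whole. In 597 pairs (50.2%, 47.3% to 53.0%) the DHSs were staggered, each reaching further than the other at 1 end. The husk DHS lay inside the V2-IST DHS in 394 pairs (33.1%) and the V2-IST DHS inside the husk DHS in 199 (16.7%). Staggered pairs were 53.3% of the pairs of 500 to under 1000 bp and 48.1% of those under 500 bp that met the same ratio and boundary conditions, and 42.2% of all one-to-one pairs. The conditions act on these same starts and ends, so the shares are given as a description.

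The ends did not differ equally within a pair. In 669 pairs (56.2%) at least 75% of the summed difference was at 1 end, against 59.1% of all one-to-one pairs. In 177 pairs (14.9%) one end agreed to within 20 bp while the other differed by more than 100 bp, against 15.0% of all one-to-one pairs. Both ends were within 50 bp in 180 pairs (15.1%), and 124 pairs (10.4%) had an end that differed by more than 500 bp, against 30.9% and 12.2% of all one-to-one pairs. The rule left out the broad pairs with the closest boundaries and those with the most unequal widths, which bears on both counts.

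**Figure D3:**
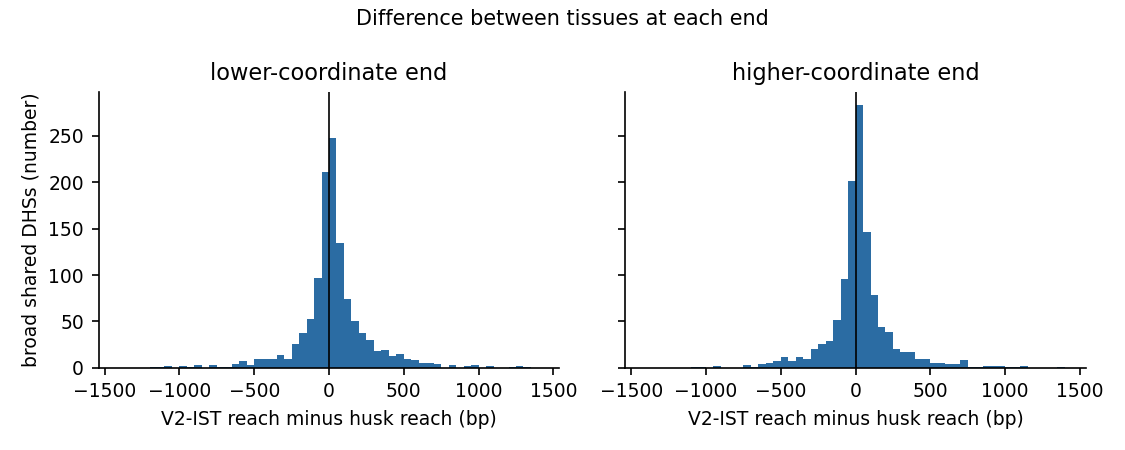
Number of broad shared DHSs (y axis) by how much further the V2-IST DHS reached than the husk DHS at the end with the lower (left panel) and the higher coordinate (right panel), in bp in steps of 50, where values above 0 mean that V2-IST reached further. Both distributions are centred near 0 and lean to V2-IST, which reached further in 57.3% and 58.7% of the 1190 pairs, against 58.5% and 59.9% of all one-to-one pairs.

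A similar width did not always mean the same stretch of DNA. In 85 of the 1190 pairs the overlap was under 70% of the wider DHS. It was at least 70% in 92.9% of the broad shared DHSs, against 66.0% of all one-to-one pairs. For pairs of 500 to under 1000 bp that met the same ratio and boundary conditions, the share was 92.7%. The conditions act on these same starts and ends, so the count is given as a description. The largest summed difference among the broad shared DHSs, 2447 bp, was on chromosome 8. There the V2-IST DHS ran from 164246118 to 164248521 and the husk DHS from 164245066 to 164247126. Their widths of 2404 and 2061 bp had 1009 bp in common. On chromosome 3 the V2-IST DHS from 9576920 to 9579500 and the husk DHS from 9575764 to 9578428 differed by 2228 bp in sum, with widths of 2581 and 2665 bp. On chromosome 5 the DHSs from 210204559 to 210206128 (V2-IST) and from 210205551 to 210207144 (husk) differed by 2008 bp, with widths of 1570 and 1594 bp. In these 3 pairs the DHSs were shifted along the chromosome, the husk DHS to the left in the first 2 and to the right in the third. The widths were nearly equal in the last 2, while in the first the V2-IST DHS was also the wider, with a ratio of 1.17.

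The pair with the smallest overlap, picked after the values were seen, shared 79 bp, or 7.76% of the wider DHS. It was on chromosome 4, with the V2-IST DHS from 182748353 to 182749370 (1018 bp) and the husk DHS from 182749292 to 182750305 (1014 bp). These lie nearly end to end, and the rule counts them as 1 shared region because it asks for 1 bp.

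The limits of the rule cut through a continuous range. Just inside the width limit was a pair on chromosome 1 of 1001 bp (V2-IST) and 1061 bp (husk), and just outside it a pair on chromosome 2 of 999 and 1009 bp. There were 219 pairs with the narrower DHS at 1000 to under 1100 bp and 280 at 900 to under 1000 bp that met the other conditions. The largest width ratio kept was 1.498 (2376 and 3560 bp, chromosome 9) and the smallest left out was 1.5004 (4033 and 2688 bp, chromosome 3). At the boundary limit, 86 pairs kept had a summed difference of up to 50 bp, and 94 broad pairs left out had one of 11 to 30 bp. The pairs on either side of each limit thus had nearly the same values.

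The position of the regions along chromosomes was not used in the selection. Each chromosome was cut into 10 equal parts up to the largest coordinate in either list. The outermost parts at both ends held 453 broad shared DHSs (38.1%, 35.4% to 40.9%), against 34.8% of the 10394 other one-to-one pairs (33.9% to 35.7%). These intervals overlap, and the share was higher than that of the other pairs on 7 of 10 chromosomes.

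The central 2 parts held 95 broad shared DHSs (7.98%, 6.58% to 9.66%), against 11.1% of the other pairs (10.5% to 11.7%). Of the one-to-one pairs in the fourth part, 6.60% were broad shared DHSs (4.74% to 9.12%), and in the last part it was 11.8% (10.5% to 13.1%). The share of broad shared DHSs in the middle of the chromosomes was thus below that of other one-to-one pairs, a difference that was not tested. Pairs of 500 to under 1000 bp that met the same ratio and boundary conditions had a nearly equal central share of 8.05% (6.88% to 9.41%), and pairs under 500 bp one of 13.3% (12.1% to 14.5%).

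Close to the very ends their share was also the lower one. Within 2 Mb of a chromosome end lay 16 broad shared DHSs (1.34%, 0.829% to 2.17%), against 2.47% of the other pairs (2.19% to 2.79%). Within 10 Mb the shares were nearly equal, 18.6% and 18.3%. Under the same ratio and boundary conditions, the share within 2 Mb was 1.91% (1.37% to 2.66%) for pairs of 500 to under 1000 bp. For those under 500 bp it was 2.52%. It was 0.556% for broad pairs with a width ratio of 1.5 or more and 1.90% for those with boundaries within 30 bp. The intervals of these groups overlap that of the broad shared DHSs, so the lower share is not read as particular to them. The 158 broad pairs with boundaries within 30 bp also lay elsewhere, with 23.4% in the outermost parts (17.5% to 30.6%) and 18.99% in the central 2 parts (13.6% to 25.8%).

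**Figure D4:**
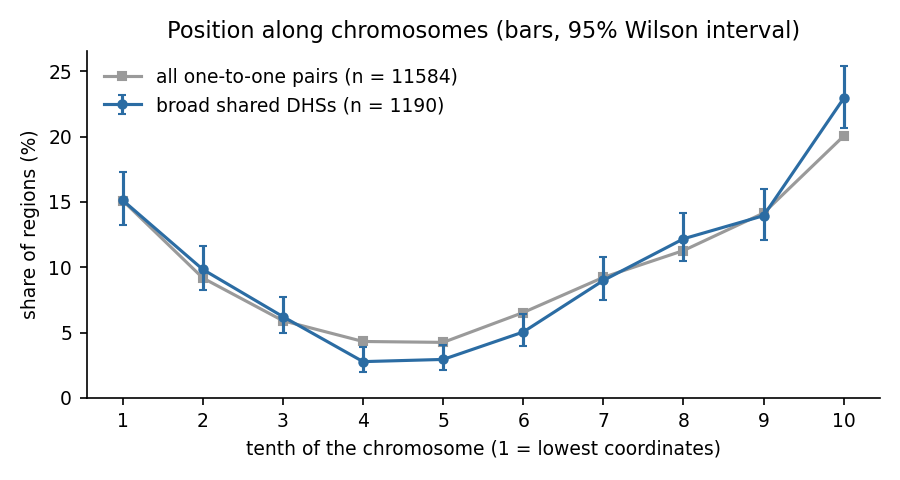
Share (%) of broad shared DHSs (blue, n = 1190) and of all one-to-one pairs (grey, n = 11584) in each of 10 equal parts of the chromosomes, added over the 10 chromosomes, with 95% Wilson intervals for the broad shared DHSs. The blue points follow the grey ones except in parts 4 to 6, where they lie below, and in part 10, where they lie above.

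Chromosome 1 had the highest density, 232 broad shared DHSs or 0.756 per Mb, and chromosome 4 the lowest, 101 or 0.409 per Mb. As a share of the one-to-one pairs of the chromosome, they were 12.1% on chromosome 1 (10.7% to 13.6%) and 9.16% on chromosome 4. The lowest such share was 8.61% on chromosome 9 (6.97% to 10.6%). Most of these intervals overlapped each other.

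Broad shared DHSs lay close to other DHSs. The distance was taken from the outer edges of a pair to the nearest other DHS of either list. Another DHS lay within 5 kb of 737 broad shared DHSs (61.9%, 59.1% to 64.6%), against 45.3% of the other one-to-one pairs (44.3% to 46.2%). The median distance was 2933.5 bp and 6532.5 bp, respectively. At 1 kb or less, 22.6% had another DHS (20.3% to 25.1%), against 15.8% (15.1% to 16.5%). These differences were not tested. The higher share within 5 kb was seen in each list taken alone, 57.2% against 41.0% for V2-IST DHSs as neighbours and 50.9% against 35.2% for husk DHSs.

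Since DHSs are denser towards chromosome ends, the shares within 5 kb were also compared part by part. They were higher for the broad shared DHSs in 10 of 10 parts and on 10 of 10 chromosomes. The gap was widest in the eighth part (69.7% against 43.7%), followed by the last part (76.9% against 53.3%), and smallest in the sixth part (38.3% against 37.0%). In the sixth part the median distance was the longer for the broad shared DHSs, 20462 bp against 17605 bp.

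The share with a close neighbour was higher in wider classes across the pairs that met the ratio and boundary conditions, and the limit of 1000 bp was no step in it. It was 36.0% under 300 bp (33.5% to 38.5%), 42.8% at 300 to under 500 bp, 49.6% at 500 to under 700 bp and 55.6% at 700 to under 1000 bp (52.5% to 58.7%). Among the broad shared DHSs it was 57.4% at 1000 to under 1500 bp (53.8% to 60.9%), 67.7% at 1500 to under 2000 bp (61.9% to 72.97%) and 73.8% at 2000 to under 3000 bp (65.9% to 80.3%). In the 31 pairs of 3000 bp or more it was 67.7%, with an interval of 50.1% to 81.4% that does not separate it from its neighbours. The 180 broad pairs with a width ratio of 1.5 or more had a share of 76.1% (69.4% to 81.8%). The 158 broad pairs with boundaries within 30 bp had one of 46.8% (39.2% to 54.6%), close to that of the other one-to-one pairs, so the higher share did not hold for every group of broad pairs open in both tissues.

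**Figure D5:**
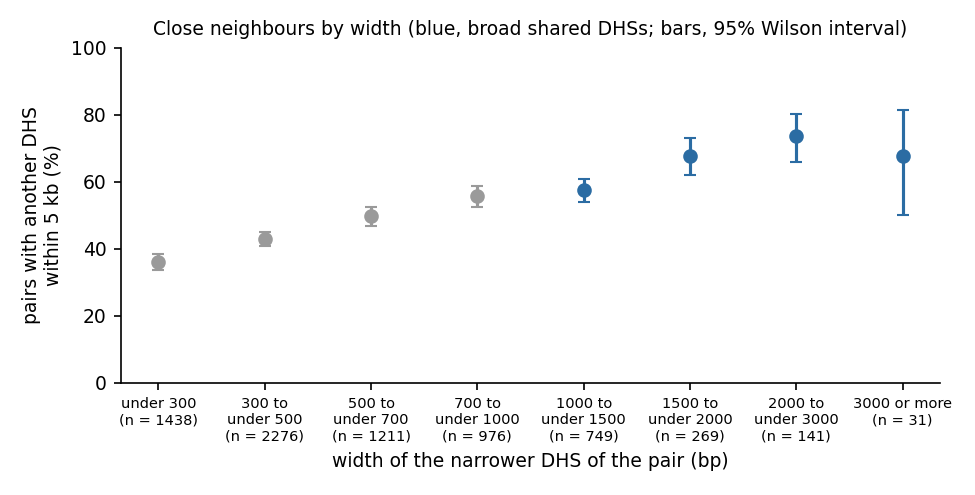
Share (%) of one-to-one pairs with another DHS of either list within 5 kb (y axis) by the width of the narrower DHS (x axis, bp), for pairs with a width ratio under 1.5 and boundaries more than 30 bp apart in sum. Points are shares, bars are 95% Wilson intervals, and blue marks the broad shared DHSs, which lie between 57.4% and 73.8%, above the 36.0% to 55.6% of the narrower classes in grey.

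Within 50 kb on either side, a broad shared DHS had 3.17 other regions on average (median 3, at most 17), against 2.43 for the other one-to-one pairs (median 2). On average 1.94 of these were open in both tissues, 0.840 were V2-IST DHSs without a husk partner and 0.390 were husk DHSs without a V2-IST partner. Of all these neighbours 61.2% were open in both tissues, against 58.2% around the other pairs. There were 2.16 neighbours in V2-IST alone for each in husk alone, against 2.23 around the other pairs. The makeup of the surroundings by tissue was thus close to that of the other pairs pooled, and the number of neighbours was higher. A higher number was not particular to the broad shared DHSs. It was 3.81 on average for broad pairs with a width ratio of 1.5 or more. Broad pairs with boundaries within 30 bp had 2.76, and 79.6% of those neighbours were open in both tissues. Among pairs that met the ratio and boundary conditions it was 1.92 under 300 bp and 2.95 at 700 to under 1000 bp. At 1000 to under 1500 bp it was 2.99.

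Whether the boundaries differed more on the side of a close neighbour was then examined. Of the broad shared DHSs, 549 had another region within 5 kb at 1 end only. The facing end differed more between the tissues than the far end in 306 of these (55.7%, 51.6% to 59.8%), with medians of 88 and 66 bp. This count was made for the broad shared DHSs alone. The conditions act on these same starts and ends, so it is given as a description. Over all ends, the median difference was 89 bp with a region within 5 kb and 61 bp without one. In pairs of 500 to under 1000 bp that met the same ratio and boundary conditions, it was 52 and 47 bp. In those under 500 bp it was 37 and 32 bp. V2-IST reached further at 64.1% of the 251 ends that faced a close V2-IST DHS without a husk partner (58.0% to 69.8%). At the 104 ends that faced a close husk DHS without a V2-IST partner, V2-IST reached further in 60.6% (51.0% to 69.4%). These intervals overlap. For pairs under 500 bp that met the same ratio and boundary conditions, the shares were 62.5% and 47.7%, and for those of 500 to under 1000 bp they were 62.2% and 48.2%. The differences were not tested.

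Some of the broad shared DHSs stood alone. No other region lay within 50 kb of 139 of them (11.7%, 9.98% to 13.6%), against 21.2% of the other pairs. The 3 most distant from any other DHS were all in the third part of chromosome 10. From 42751268 to 42752475 in V2-IST (1208 bp) and from 42751301 to 42752470 in husk (1170 bp), the nearest other DHS was 860145 bp away. That neighbour was itself the second of the 3, from 41889914 to 41891101 in V2-IST (1188 bp) and from 41889934 to 41891122 in husk (1189 bp), whose nearest DHS on its other side was 816167 bp away in husk. The third, from 33046420 to 33047555 in V2-IST (1136 bp) and from 33046374 to 33047554 in husk (1181 bp), had no DHS within 740572 bp. In these isolated pairs the summed boundary differences were 38, 41 and 47 bp, near the lower limit of the rule.

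At the other extreme, the shortest distance was 70 bp, on chromosome 5, from the next V2-IST DHS to a pair of 1987 bp in V2-IST (213284039 to 213286025), with a husk DHS of 2441 bp (213283498 to 213285938). It was 106 bp on chromosome 1 (49052850 to 49056265 in V2-IST, 3416 bp, with 49053303 to 49056255 in husk, 2953 bp) and 335 bp on chromosome 9 (23399713 to 23400963 in V2-IST, 1251 bp, and 23399552 to 23400718 in husk, 1167 bp). The nearest DHS was one of husk on chromosome 1 and one of V2-IST on chromosome 9. In these 3 pairs the boundaries differed by 406 to 628 bp in sum. The median over all broad shared DHSs was 196 bp. The rule used these differences, and the closest and most distant pairs are single cases, so no relation between distance and boundaries is read from them.

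Whether broad shared DHSs were next to each other was also counted, without a test. The nearest other one-to-one pair was itself a broad shared DHS for 188 of them (15.8%, 13.8% to 18.0%), against 10.7% for the other pairs (10.1% to 11.3%). It was 15.6% for the broad pairs with a width ratio of 1.5 or more (10.99% to 21.6%). For the pairs of 500 to under 1000 bp under the same conditions it was 12.1% (10.7% to 13.7%), and for those under 500 bp 9.47% (8.47% to 10.6%). The broad pairs with boundaries within 30 bp had the lowest of these shares, 5.06% (2.59% to 9.67%). Groups of other pairs thus lay both above and below their pooled share. When neighbours more than 100 kb away were left out, the shares were 16.6% for the broad shared DHSs and 11.6% for the other pairs. The nearest pair had a median width of 603 bp (interval from order statistics 579.5 to 630 bp) beside a broad shared DHS and 540.5 bp (528 to 550 bp) beside another pair. Both medians lay under the 1000 bp minimum that the rule set for a broad shared DHS. No contrast in width between a broad shared DHS and its neighbour is therefore read from them.

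Chained over gaps of up to 100 kb, 801 broad shared DHSs were single, 123 groups held 2 and 46 groups held 3 or more, with at most 4 in a group. There were 5 groups of 4, and the first 3 in chromosome order are described. The first spanned 124.7 kb on chromosome 3, from 22042679 to 22167419, and held 8 regions, of which 7 were open in both tissues. Its broad DHSs measured 1107, 2191, 2478 and 2369 bp in V2-IST, with 1076, 2226, 2369 and 2266 bp in husk, with summed boundary differences of 31 to 137 bp. In this group the tissues agreed closely at every broad DHS.

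The second group, on chromosome 5 from 43431686 to 43566332, held 5 regions, and its widths were 1314, 2129, 3565 and 1320 bp in V2-IST, with 1198, 2353, 3415 and 1350 bp in husk. The third, also on chromosome 5, from 210103379 to 210207144, held 10 regions, 8 of them open in both tissues. Its widths were 1237, 2258, 1189 and 1570 bp in V2-IST, with 1294, 2155, 1013 and 1594 bp in husk. The last of these DHSs was the pair shifted by 2008 bp in sum that was described above, while the other 3 differed by 57 to 176 bp, so close agreement and a large shift occurred within 103.8 kb.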

How the data were processed

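Per the study's methods, the authors aligned DNase-seq reads with BWA, removed reads with a mapping quality under 20 with SAMtools, and called peaks with MACS2 (q-value limit 0.001) in each biological replicate against naked DNA, after pooling technical libraries. Peaks overlapping by at least 70% between replicates were integrated. The methods name the AGPv4 assembly and the submitters' processing notes name B73 RefGen version 3. The candidate regions of the study, given on AGPv4, all overlapped the lists (398 of 398 in V2-IST and 1320 of 1320 in husk), so coordinates are given on AGPv4, 1-based. The deposited lists hold 3 columns, chromosome, start and end, in bp, with no score. Depth per replicate was not used here.

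Pairs, distances and shares were computed with Python 3.11.15, numpy 2.4.6, pandas 2.3.3 and scipy 1.17.1 and plotted with matplotlib 3.10.9. The code was checked on simulated lists, in which 483 of 483 planted pairs that met the rule were found. The planted pairs overlapped over most of their length and none lay at a limit of the rule. The check thus does not cover pairs at a limit or with little overlap. The rule, groups and measures were chosen with earlier results of these data known. Regions named are the 5 widest by mean width, the 3 with the largest boundary difference, the 3 nearest to and the 3 farthest from another DHS, 3 of the 5 groups tied for the most regions (the first in chromosome order), the pairs at each limit and the chromosomes of highest and lowest density. Genes, GC content, motifs and sequences were not analysed here, because a genome and annotation of AGPv4 were not used here. Alternatives were other limits of the rule, other distances and other parts of the chromosome.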

Additional observations from a re-analysis of the deposited data

How the results depend on the processing

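No paired analysis was possible because the replicates of a tissue were merged into 1 list, and for the same reason no replicate was left out. A stricter peak threshold was not run, since the lists hold no score. A value counted as moved when it left the 95% interval of the reported value, or, for the number of pairs, when it changed by more than 1.5 times.

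With a minimum width of 800 bp there were 1795 pairs and with 1500 bp 441, against 1190. The median widths were then 1236 and 1191 bp (V2-IST and husk) and 2006 and 1951 bp, which follows from the limit. The share of broad V2-IST DHSs that were broad shared DHSs was 34.9% and 31.1%. At 1500 bp the central 2 parts held 5.44% and 69.6% had another DHS within 5 kb. Under a boundary difference over 100 bp the median widths were 1529 and 1468 bp and the share within 5 kb 66.1%, and with width ratios under 2 the median V2-IST width was 1510 bp. Counted within 2 kb and 10 kb, the share with another DHS was 41.0% and 71.8%. With 20 parts, the outermost part at each end held 20.1%.

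The share whose nearest pair was also a broad shared DHS was 20.8% (800 bp), 9.98% (1500 bp), 13.8% (ratio under 1.3), 12.6% (over 100 bp) and 21.6% (overlap of at least 70% of both DHSs). Among other pairs the share was then 16.1%, 4.08%, 9.32%, 8.07% and 14.7%. Under all 7 other definitions of a broad shared DHS the share within 5 kb stayed above that of the other pairs, by 14.9 to 23.5 percentage points, and the share in the central 2 parts stayed below it, by 1.71 to 5.55 points. The share in the outermost parts was 1.35 points above that of the other pairs when no minimum boundary difference was set, and up to 5.64 points above in the other definitions.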
